A study of Mus musculus with 20 samples.

Results

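Interferon-stimulated genes are the genes that cells switch on after an interferon binds its receptor. Here 48 of them were followed through 20 bulk RNA-sequencing libraries of mouse cortex, chosen as the rows of the deposited count table whose gene name equals a listed interferon-induced gene. The table held 48795 genes, and each of the 48 names matched a single row. Of the 48 genes, 45 had enough counts to be tested among 17313 tested genes, and Zbp1, Oas3 and Oasl1 did not.

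The tissue is labelled as brain and, by the study's methods, was sensory-motor cortex. The animals were CD-1 offspring, with no genetic change stated, of dams that received a single intraperitoneal injection on gestation day 9. MIR offspring (maternal inflammatory response) came from dams given lipopolysaccharide from Escherichia coli at 0.008 mg/kg in saline, and control offspring came from dams given saline alone. Adult offspring of both kinds were given either DMSO vehicle or rapamycin, which inhibits the growth-regulating kinase mTOR, 2 hours before euthanasia. This gave 4 groups of 5 libraries: control vehicle, control rapamycin, MIR vehicle and MIR rapamycin. The study's supplement lists several control and several MIR litters as the source of the sequenced mice. It lists the same litters for behaviour tests at a young age, a microglia-depleting diet and induced seizures. Whether a sequenced mouse went through any of these is not stated. The litter and sex of a given library are not stated either, so libraries of a group may come from littermates. The p-values measure only the spread between these libraries. Libraries are named below by group and replicate number.

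In the canonical pathway, type I interferons bind a receptor made of Ifnar1 and Ifnar2, the receptor's kinases phosphorylate Stat2, and Stat2 and Irf9 enter a complex that binds the interferon-stimulated response element (ISRE) in target promoters. Interferon gamma acts on a different element, the gamma-activated site (GAS). In brain tissue microglia, endothelial cells and other border cells hold many of these transcripts at a low resting level. The listed genes include nucleic acid sensors (Ifih1, Ddx58, Dhx58 and Zbp1), transcription factors (Stat2, Irf1, Irf7 and Irf9), the RNA-binding IFIT family (Ifit1, Ifit2, Ifit3 and Ifit3b), oligoadenylate synthetases that activate RNase L and their relatives (Oas1a, Oas1b, Oas2, Oas3, Oasl1 and Oasl2), and the dynamin-like antiviral GTPases Mx1 and Mx2. They also include guanylate-binding proteins (Gbp2, Gbp3, Gbp6 and Gbp7), immunity-related GTPases (Iigp1, Igtp, Irgm1 and Irgm2), the ubiquitin-like modifier Isg15 with other ubiquitin and ADP-ribosylation factors (Usp18, Parp9, Parp14, Dtx3l, Trim25 and Trim30a), a set of further effectors (Bst2, Rsad2, Cmpk2, Rtp4, Xaf1, Eif2ak2, Ifitm3, Ifi44, Ifi27, Ifi35, Lgals3bp and Sp100) and the chemokine Cxcl10.

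The sequence feature that the list did not use is the ISRE, and a few windows that hold its letters are shown as a description. RefSeq promoter windows of build GRCm38.p6, from 250 bases before to 50 bases after the transcript start, were found by exact symbol for 35 of the 48 genes. The ISRE letters (GAAA, any 2 bases, GAAA), searched on both strands, occurred in 21 of these 35 genes against 3.99% of the 27025 genes in the same table. The GAS letters TTCNNNGAA, which read the same on both strands, occurred in 10 of the 35 (28.6%) against 9.55% of all genes, and a window can hold both. Each line below gives a stretch of 30 bases, 5′ to 3′ on the gene's strand, with the ISRE letters in capitals. Where the capitals open with TTTC, the match is on the other strand. Only windows with a match are shown, and those of Irf7, Oasl2, Ifi44 and Lgals3bp held none. A match is a description of the letters and not a tested binding site.
Ifit1 chr19:34640794-34640823 (+ strand): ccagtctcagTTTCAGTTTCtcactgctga
Ifit3 chr19:34583363-34583392 (+ strand): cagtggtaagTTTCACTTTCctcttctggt
Ifit3b chr19:34607759-34607788 (+ strand): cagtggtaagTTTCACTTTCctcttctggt
Isg15 chr4:156200871-156200900 (- strand): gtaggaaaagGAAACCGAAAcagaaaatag
Gbp2 chr3:142620594-142620623 (+ strand): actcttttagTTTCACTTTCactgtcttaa
Stat2 chr10:128270266-128270295 (+ strand): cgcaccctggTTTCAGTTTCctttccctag
Cxcl10 chr5:92349083-92349112 (- strand): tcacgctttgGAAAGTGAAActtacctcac
The Ifit3 and Ifit3b windows have the same 30 bases. These neighbouring genes on chromosome 19 also share transcript sequence: 51.2% of the 50-base words of Ifit3 also occur in Ifit3b, so reads may be split between them and their counts are uncertain. The same holds for Oas1a (57.6% shared, with Oas1g and Oas1b) and Gbp6 (70.7% shared, with Gm43302 and Gbp10). Igtp and Irgm2 overlap on the same strand, and Parp9 and Dtx3l overlap on opposite strands. Of the 48 genes, 8 have an exon overlap with another gene on the same strand and 11 on the opposite strand. Among them are Parp14, Irf9 and Rtp4 (same strand) and Irf7, Usp18 and Cxcl10 (opposite strand). No source used here states the strand setting of the counting.

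The libraries held 17.8 to 24.5 M counts (M, mega) assigned to genes. Levels are given as CPM, the share of a gene in the counts of its library, with TMM scaling of the library sizes. In 19 libraries the 48 genes took 0.0163% to 0.0362% of all counts, and in control vehicle 2 they took 0.0915%. Control vehicle 1, 2 and 3 carried RNA of other brain regions, which goes against the tissue named in the study's methods. Control vehicle 1 had markers of striatum (summed 2638 CPM, against 88.7 to 255 in the other libraries) and a low cortical excitatory neuron score (-4.08). Control vehicle 3 had choroid plexus markers at 1256 CPM. Control vehicle 2 had cerebellar markers at 2591 CPM, against 22.5 to 78.4 in the other 19, and a cortical excitatory neuron score of -1.34. A score here is the mean log2 CPM of the tested genes of a list minus that of the median library. The control vehicle group stood higher as a whole: its choroid plexus scores were 1.20 to 6.14 and its cerebellar scores 0.13 to 6.52, against -1.35 to 0.24 and -0.62 to 0.01 in control rapamycin. Quasi-likelihood results that use the control vehicle group are mostly given with and without control vehicle 2. Calls by DESeq2 and the likelihood ratio test come from fits with all libraries only. Control vehicle 2 was singled out because it had the highest level of these same genes. Its regional markers were not the reason, since control vehicle 1 and 3 also carried RNA of other regions. Leaving control vehicle 2 out lowers the control vehicle level of the set by construction. It also narrows the spread of these genes, which all comparisons share. The fits without this library are therefore a description only.

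Control vehicle 2 stood apart for the interferon-stimulated genes as a set. The score over the 45 tested genes was 2.28 in this library. In control vehicle libraries 1, 3, 4 and 5 it was 0.10, -0.19, -0.34 and 0.21. The control rapamycin libraries had the lowest scores as a group, at -0.24, -0.81, -0.80, -0.79 and -0.61. MIR vehicle libraries stood at 0.93, -0.10, 0.30, 0.62 and 0.69, and MIR rapamycin libraries at 0.42, -0.39, 0.74, -0.26 and 0.22. Without control vehicle 2 the control vehicle score was -0.05 ± 0.25 (SD, n = 4). MIR vehicle was at 0.49 ± 0.40, MIR rapamycin at 0.15 ± 0.47 and control rapamycin at -0.65 ± 0.24 (SD, n = 5 each). These control vehicle libraries overlapped with both MIR groups, but replicates 3 and 4 lay below every MIR vehicle library. Among the 19 other libraries, of which 10 were MIR libraries and 5 control rapamycin, 38 of the 45 genes (84.4%, against 37.0% of all tested genes) had their highest level in an MIR library and 33 (73.3%, against 39.5%) had their lowest in a control rapamycin library. Most of the 38 came from single libraries, with 17 highest in MIR vehicle 1 and 16 in MIR rapamycin 3. With all libraries, control vehicle 2 was the highest for 40 of the 45. Genes read in the same libraries are not independent, so these counts are a description.

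**Figure D1:**
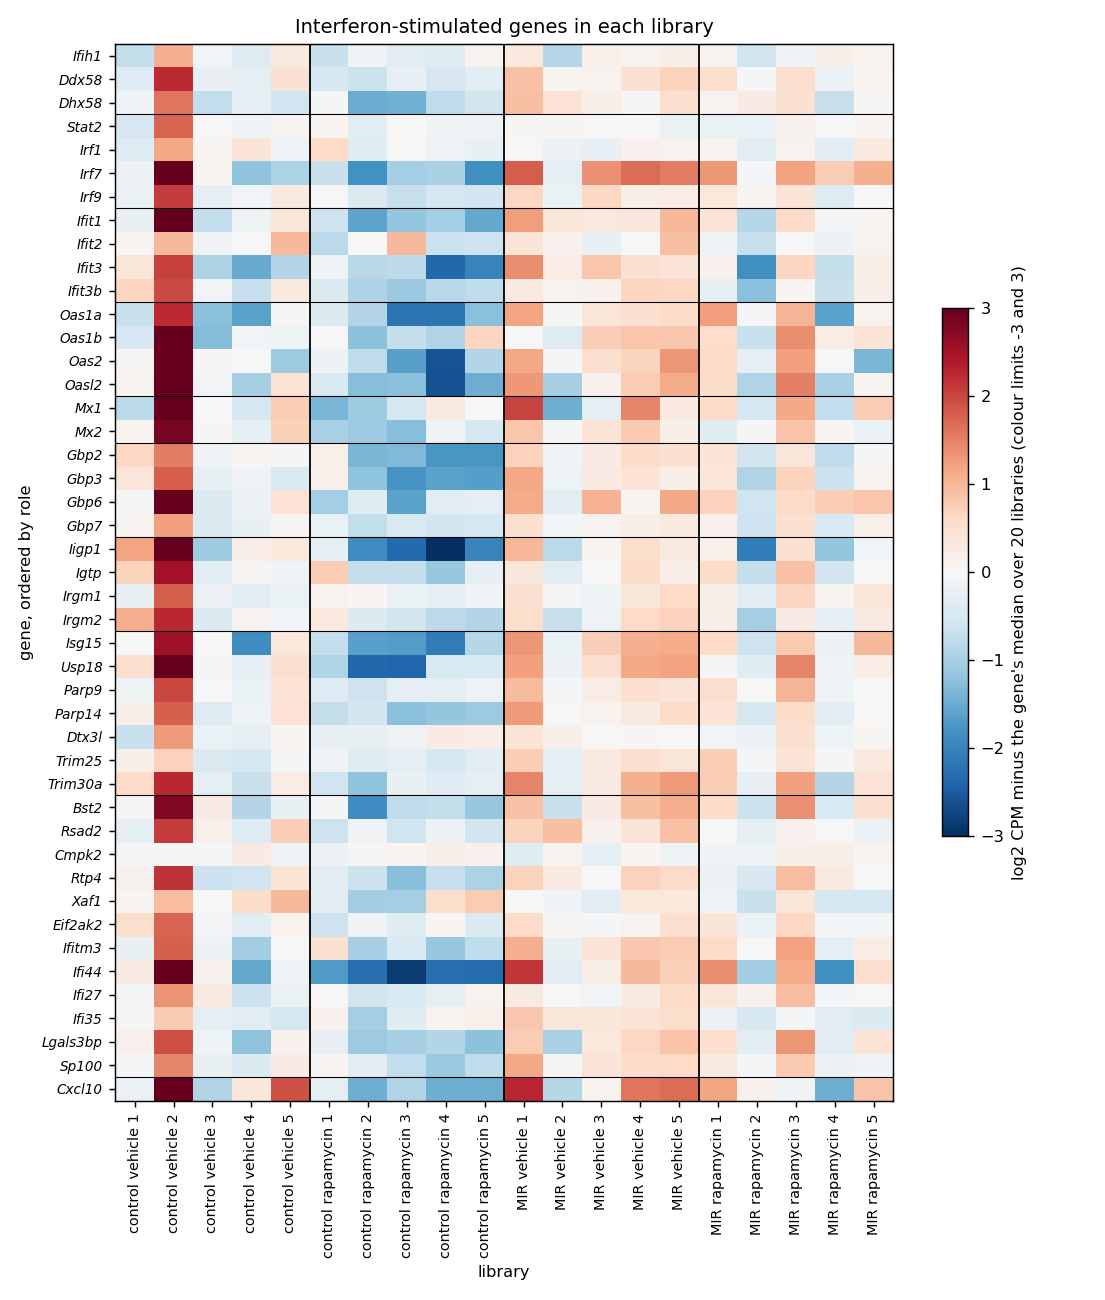
Level of each of the 45 tested interferon-stimulated genes (rows, ordered by role) in each of 20 libraries (columns, 5 per group), as log2 CPM minus the gene's median over the 20 libraries, with colours limited at -3 and 3. Control vehicle 2 is the highest library for 40 of the 45 genes, and the control rapamycin block is mostly below the median.

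In control vehicle 2, 40 of the 45 genes were at their highest of all 20 libraries, against 20.5% of all tested genes. Relative to the median of the other 19 libraries, the level in this library was higher by a median factor of 4.36 over the 45 genes and 1.004 over all tested genes. The factor exceeded 2 for 40 genes and 4 for 26 genes. It reached 41.8 for Cxcl10, a chemokine that attracts activated T cells, 19.3 for Ifi44, 18.2 for Ifit1, 17.7 for Usp18 and 16.5 for Gbp6. All 4 tested members of the OAS family lay between 5.95 and 15.5 times the median. The 5 genes that were not at their highest there were Cmpk2, Ifit2, Xaf1, Trim25 and Ifi35.

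The 3 genes with too few counts for a test followed the same library. Zbp1, a sensor of nucleic acids in the Z form, had 60 counts in control vehicle 2 and 0 to 23 in the others. Oas3 had 46 counts against 0 to 8, and Oasl1 had 43 against 0 to 8. In control rapamycin these genes had 7, 2 and 4 counts in all over 5 libraries. A count of 3 in a library corresponds to 0.123 to 0.174 CPM, so differences among the low libraries were not detectable at this depth.

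The same library held markers of other cells and regions. Of 8 B and plasma cell markers, 7 were highest in control vehicle 2, with immunoglobulin kappa (Igkc) at 162 CPM against 0 to 0.824 in the other 19 and Jchain at 46.5 against 0.172 to 0.785. Their summed level was 231 CPM against 8.66 to 50.2. Of 8 T and NK cell markers 6 were highest there but low, among them Cd8a at 1.004 CPM and Cd3g at 0.742, against at most 0.129 and 0.114. The summed level of these 8 markers was highest in another control vehicle library, at 49.9 CPM. All 6 cerebellar markers were highest there, led by Cbln3 at 841 CPM. The astrocyte score was 0.87 (summed 2965 CPM), against at most 0.48 (2033 CPM) in the other 19. Scores of microglia (-0.26) and endothelial cells (0.07) in this library lay within the range of the other 19. The part of these cells and of the cerebellar tissue in the interferon-stimulated gene levels was not tested. In bulk tissue, fewer cells of a type and less RNA per cell cannot be told apart.

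Transcripts of the interferons themselves were almost absent. Of 20 interferon genes looked for, 16 had no count in any library and the others together had 5 counts over 20 libraries, with no more than 1 in a library. A count of 0 allows up to 0.123 to 0.174 CPM per library, depending on its depth. Ifnar1, a chain of the type I interferon receptor, was at 41.3 to 56.3 CPM in all 20 libraries, with control vehicle 2 (45.7) inside that range.

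**Figure D2:**
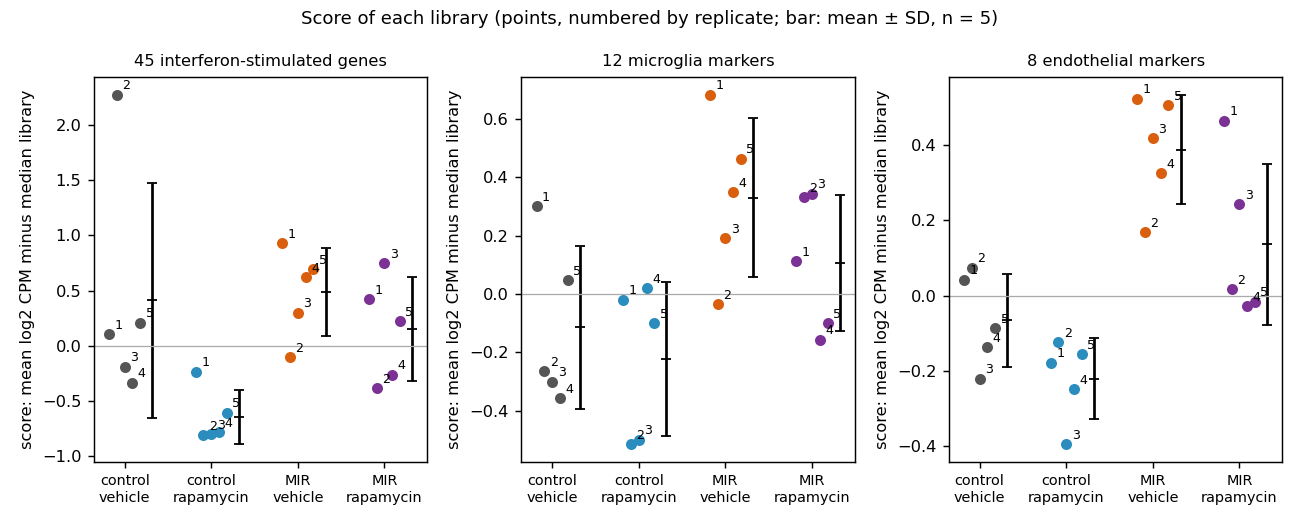
Score of each library (points, numbered by replicate) for the 45 interferon-stimulated genes, 12 microglia markers and 8 endothelial markers, by group, with the mean and SD of 5 libraries beside the points. Control vehicle 2 lies at 2.28 in the first panel and within the range of the other libraries in the microglia and endothelial panels.

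The effect of rapamycin in control offspring was the comparison with most calls. Of the 45 genes, 17 fell (edgeR quasi-likelihood test, adjusted p under 0.05 over all tested genes and a log2 fold change over 0.5 in size) and none rose. Across all tested genes 3.71% fell and 1.52% rose, and 37.8% of the members fell. The median log2 fold change of the 45 genes was -1.39, and that of all tested genes was -0.03. With all libraries, DESeq2 called 24 of the 45 (7.58% of all genes in either direction) and the edgeR likelihood ratio test 26 (7.62%). Neither was run without control vehicle 2. Below, "fell" and "called" refer to the quasi-likelihood test unless another test is named. The genes that fell were Irf7, Ifit1, Ifit3b, Oas2, Oasl2, Mx2, Gbp2, Gbp3, Gbp6, Iigp1, Isg15, Usp18, Parp14, Rsad2, Rtp4, Ifi44 and Cxcl10. When control vehicle 2 was left out, only Iigp1 and Parp14 of these were called (2 of 45, 4.44%, against 2.22% of all tested genes called lower and 0.825% higher), and the median was -0.52 with 38 of 45 estimates negative. At an unadjusted p under 0.05, 34 genes were lower with all libraries (75.6%, against 15.5% of all genes) and 14 in the fit that leaves out control vehicle 2 (31.1%, against 11.8%). Leaving out a control rapamycin library also reduced the count, to 5 without replicate 3 (2.56% of all tested genes called, against 5.23% with all libraries), 8 without replicate 4 (3.09%), 9 without replicate 5 (2.97%), 10 without replicate 2 (4.17%) and 11 without replicate 1 (2.76%), while 27 genes were called without control vehicle 4 (7.75%). With control vehicle 1, 2 and 3 all left out, none of 46 tested genes was called (0.2% of all), the median was -0.52, and 14 genes of either direction had an unadjusted p under 0.05.

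Irf7 (mm10 chr7:141262706-141266481, minus strand), the transcription factor that amplifies type I interferon responses, showed how the groups were arranged. Its CPM values in control vehicle libraries 1 to 5 were 1.79, 17.5, 2.15, 0.824 and 1.03, and in control rapamycin 1.26, 0.512, 0.967, 0.988 and 0.505. In MIR vehicle they were 7.41, 1.66, 5.39, 6.68 and 6.11, and in MIR rapamycin 5.12, 1.94, 4.81, 3.54 and 4.37. Apart from control vehicle 2, the 8 highest libraries were MIR libraries, and of the MIR libraries only MIR vehicle 2 and MIR rapamycin 2 lay within the range of the other control vehicle libraries. The log2 fold change for rapamycin in control offspring was -2.47 ± 0.70 (SE, adjusted p = 0.0392), and it was -0.79 ± 0.42 (adjusted p = 0.286) without control vehicle 2. The quasi-likelihood test called none of the other transcription factors, Stat2, Irf1 and Irf9, in this comparison, whereas DESeq2 and the likelihood ratio test called Irf9 lower. Stat2, a subunit of the ISRE-binding complex, was at 19.7, 93.2, 27.9, 25.4 and 29.4 CPM in control vehicle and 21.9 to 30.2 CPM in the 15 libraries of the other groups, so that control vehicle 2 was its only high library. Irf9, its DNA-binding partner, was at 43.6 CPM in control vehicle 2 and 6.24 to 15.6 in the others. Irf1, induced by interferon gamma, was at 10.96 CPM there and 3.75 to 7.49 elsewhere.

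Of the tested sensors none was called by the quasi-likelihood test, and Ddx58 was called lower by both other tools. Ddx58, which encodes the RNA sensor RIG-I, had a log2 fold change of -1.23 ± 0.40 (SE, adjusted p = 0.0603) in control offspring under rapamycin, and Dhx58, which encodes its relative LGP2, had -1.12 ± 0.43 (adjusted p = 0.105). Both were closer to 0 without control vehicle 2, at -0.38 and -0.39. Ifih1, the MDA5 sensor, was at 12.8 CPM in control vehicle 2 and 3.27 to 7.35 in the others. Ddx58 was at 23.5 CPM in control vehicle 2, 3.75 to 6.72 in the rest of its group, 3.12 to 4.09 in control rapamycin, 5.17 to 9.03 in MIR vehicle and 4.29 to 7.11 in MIR rapamycin. The MIR libraries of Ddx58 all lay above the control rapamycin libraries.

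In the IFIT family, Ifit1 and Ifit3b fell and Ifit2 and Ifit3 were not called. Ifit1 binds RNA that lacks the cap methylation of host messages. Its CPM values were 1.70, 34.8, 1.16, 1.78 and 2.58 in control vehicle, 1.26, 0.605, 0.835, 0.941 and 0.632 in control rapamycin, 4.86, 2.58, 2.49, 2.55 and 4.09 in MIR vehicle and 2.68, 1.06, 3.03, 1.91 and 2.08 in MIR rapamycin. Control rapamycin was low as a group, with an overlap with control vehicle of 1 library on each side (control rapamycin 1 and control vehicle 3). The log2 fold change was -3.31 ± 0.78 (SE, adjusted p = 0.0205), and -1.09 ± 0.32 (adjusted p = 0.0583) without control vehicle 2. Ifit3 was at 6.66, 21.8, 2.62, 1.74 and 2.76 in control vehicle, 4.69, 2.88, 2.94, 0.941 and 1.22 in control rapamycin, 13.7, 5.998, 9.25, 7.17 and 6.83 in MIR vehicle and 5.70, 1.39, 8.17, 3.12 and 5.92 in MIR rapamycin, with the groups overlapping. Ifit3b fell by 1.57 on the log2 scale (adjusted p = 0.0228) and by 0.95 without control vehicle 2 (adjusted p = 0.0549).

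In the OAS and Mx families Oas2, Oasl2 and Mx2 fell, while Oas1a, Oas1b and Mx1 did not pass the quasi-likelihood test, and the likelihood ratio test called Oas1a lower. GENCODE annotates Oas1b and Mx2 as polymorphic pseudogenes, and the alleles of these mice were not examined. Oasl2, an OAS-like protein, was at 3.27, 43.96, 2.92, 1.51 and 4.22 CPM in control vehicle, 2.23, 1.21, 1.23, 0.423 and 1.05 in control rapamycin, 7.75, 1.51, 3.40, 5.30 and 6.79 in MIR vehicle and 4.58, 1.61, 8.94, 1.54 and 3.27 in MIR rapamycin. Control vehicle 2 was far above the next highest library, MIR rapamycin 3. The log2 fold change was -3.20 ± 0.83 (SE, adjusted p = 0.0285) and -1.30 ± 0.54 (adjusted p = 0.167) without that library. Oas2 fell by 2.97 and Mx2 by 2.09 on the log2 scale with all libraries (adjusted p = 0.0455 and 0.0271), and without control vehicle 2 they stood at -1.11 and -1.001 and were not called. Oas2, which makes longer oligoadenylates, was at 5.67 CPM in control vehicle 2, 0.172 to 0.479 in the rest of its group, 0 to 0.400 in control rapamycin, 0.439 to 1.30 in MIR vehicle and 0.122 to 1.20 in MIR rapamycin. Mx2 was at 8.43 CPM in control vehicle 2, 0.870 to 1.85 in the rest of its group, 0.396 to 0.988 in control rapamycin, 1.07 to 2.02 in MIR vehicle and 0.829 to 2.07 in MIR rapamycin. In both genes control rapamycin reached the lowest levels and overlapped with the control vehicle range. Control rapamycin 4 held 0 counts of Oas2.

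The remaining genes of these families had few counts outside control vehicle 2. Oas1a was at 1.92 CPM in control vehicle 2, 0.0458 to 0.344 in the rest of its group, 0 to 0.229 in control rapamycin, 0.341 to 0.868 in MIR vehicle and 0.0466 to 0.926 in MIR rapamycin. Oas1b, the mouse gene linked to flavivirus resistance, was at 5.33 CPM in control vehicle 2, 0.0858 to 0.320 in the rest of its group, 0.0930 to 0.590 in control rapamycin, 0.244 to 0.687 in MIR vehicle and 0.185 to 1.06 in MIR rapamycin. Mx1, which blocks orthomyxoviruses in the nucleus, was at 3.75 CPM in control vehicle 2, 0.131 to 0.560 in the rest of its group, 0.0571 to 0.376 in control rapamycin, 0.0488 to 1.504 in MIR vehicle and 0.140 to 0.769 in MIR rapamycin. In control vehicle 2 these 3 genes were above every other library. Without it the 4 groups overlapped for Oas1b and Mx1, and for Oas1a MIR vehicle lay above control rapamycin.

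The interferon-induced GTPases held one of the 2 genes that were also called without control vehicle 2. Iigp1, an immunity-related GTPase that attacks the membranes of vacuoles around intracellular parasites, was at 3.005, 11.8, 0.558, 1.47 and 1.59 CPM in control vehicle and 1.03, 0.279, 0.176, 0.0470 and 0.253 in control rapamycin. It was at 2.60, 0.683, 1.36, 1.86 and 1.54 in MIR vehicle and 1.41, 0.231, 1.78, 0.513 and 1.18 in MIR rapamycin. Of the control rapamycin libraries, only replicate 1 exceeded the lowest control vehicle library, and the lowest held 1 count. The log2 fold change was -3.41 ± 0.78 (SE, adjusted p = 0.0177), and -2.27 ± 0.64 (adjusted p = 0.0471) without control vehicle 2. The quasi-likelihood test called none of Igtp, Irgm1 and Irgm2, DESeq2 and the likelihood ratio test called Irgm2 lower, and Irgm1 stood at 0.14 without that library. Igtp, also called Irgm3, was at 15.3 CPM in control vehicle 2, 2.06 to 4.14 in the rest of its group, 1.13 to 4.40 in control rapamycin, 2.05 to 3.83 in MIR vehicle and 1.52 to 4.86 in MIR rapamycin. Irgm2 was at 12.2 CPM in control vehicle 2, 1.80 to 5.40 in the rest of its group, 1.31 to 3.09 in control rapamycin, 1.51 to 4.09 in MIR vehicle and 1.20 to 3.02 in MIR rapamycin. Outside control vehicle 2 the 4 groups of both genes overlapped.

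Among guanylate-binding proteins, large GTPases that act on the vacuoles of intracellular pathogens, Gbp2, Gbp3 and Gbp6 fell, and Gbp7 was called lower by DESeq2 and the likelihood ratio test but not by the quasi-likelihood test. Gbp2 was at 6.27, 11.9, 3.73, 4.21 and 3.83 CPM in control vehicle, 4.46, 1.49, 1.54, 1.13 and 1.14 in control rapamycin, 6.54, 3.71, 4.81, 5.89 and 5.54 in MIR vehicle and 5.41, 2.72, 5.19, 2.33 and 3.84 in MIR rapamycin. Control rapamycin 1 lay among the control vehicle libraries, and the other 4 lay below all of them. The log2 fold change was -1.64 ± 0.39 (SE, adjusted p = 0.0210) and -1.24 ± 0.35 (adjusted p = 0.0502) without control vehicle 2. Gbp3 fell by 1.59 and Gbp6 by 2.79 (adjusted p = 0.0432 and 0.0426), with -0.98 and -0.82 and no call without that library. Gbp3 was at 18.1 CPM in control vehicle 2, 3.75 to 6.75 in the rest of its group, 1.45 to 5.77 in control rapamycin, 4.63 to 11.6 in MIR vehicle and 2.72 to 8.27 in MIR rapamycin. Gbp6 was at 5.02 CPM in control vehicle 2, 0.214 to 0.474 in the rest of its group, 0.0440 to 0.253 in control rapamycin, 0.244 to 0.818 in MIR vehicle and 0.185 to 0.653 in MIR rapamycin. Gbp7 was at 18.6 CPM in control vehicle 2, 5.88 to 8.35 in the rest of its group, 4.70 to 6.80 in control rapamycin, 7.46 to 11.1 in MIR vehicle and 5.08 to 11.1 in MIR rapamycin. All 3 genes had their lowest value in a control rapamycin library. For Gbp6 that value was 1 count.

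In the Isg15 and ubiquitin group Isg15, Usp18 and Parp14 fell. Of the 45 genes, Parp14, Usp18 and Ifi44 (6.67%) had every control rapamycin library below every control vehicle library, against 2.8% of all tested genes. Parp14 (mm10 chr16:35832874-35871544, minus strand), an ADP-ribosyltransferase, was at 5.40, 16.5, 3.60, 4.26 and 6.46 CPM in control vehicle and 2.86, 3.21, 1.93, 2.07 and 2.19 in control rapamycin, with no overlap. It was at 11.7, 4.78, 5.08, 5.74 and 7.03 in MIR vehicle and 6.24, 3.37, 6.97, 3.78 and 4.70 in MIR rapamycin. The log2 fold change in control offspring was -1.57 ± 0.37 (SE, adjusted p = 0.0198) and -1.01 ± 0.28 (adjusted p = 0.0434) without control vehicle 2. Isg15, the ubiquitin-like protein that is joined to other proteins after interferon, was at 0.915, 5.72, 0.901, 0.183 and 1.16 CPM in control vehicle, 0.514, 0.233, 0.220, 0.141 and 0.463 in control rapamycin, 2.43, 0.780, 1.59, 2.01 and 2.07 in MIR vehicle and 1.41, 0.554, 1.63, 0.793 and 1.88 in MIR rapamycin. Control vehicle 4 lay within the control rapamycin range. Its log2 fold change was -2.49 ± 0.66 (SE, adjusted p = 0.0313), and -1.34 ± 0.50 (adjusted p = 0.131) without control vehicle 2. Usp18 (mm10 chr6:121245906-121270917, plus strand), which removes Isg15 and restrains the receptor, was at 0.915, 10.6, 0.601, 0.503 and 0.904 in control vehicle, 0.286, 0.0465, 0.0440, 0.423 and 0.421 in control rapamycin, 1.56, 0.536, 0.907, 1.47 and 1.54 in MIR vehicle and 0.634, 0.462, 1.88, 0.560 and 0.735 in MIR rapamycin. The 2 control groups did not overlap, and the log2 fold change was -3.44 ± 0.85 (SE, adjusted p = 0.0235) or -1.57 ± 0.55 (adjusted p = 0.104) without control vehicle 2. The lowest library of Usp18, in control rapamycin, held 1 count. Parp9, Dtx3l, Trim25 and Trim30a were not called by the quasi-likelihood test, with log2 fold changes from -1.37 to -0.23, whereas both other tools called Parp9 lower and DESeq2 called Trim30a lower. Parp9, an ADP-ribosyltransferase that works with the ubiquitin ligase Dtx3l, was at 14.01 CPM in control vehicle 2, 2.98 to 4.57 in the rest of its group, 2.19 to 3.08 in control rapamycin, 3.27 to 6.65 in MIR vehicle and 3.12 to 7.02 in MIR rapamycin. Dtx3l was at 19.6 CPM in control vehicle 2, 4.96 to 8.40 in the rest of its group, 6.74 to 9.45 in control rapamycin, 7.89 to 10.7 in MIR vehicle and 7.11 to 11.2 in MIR rapamycin. Trim30a, a TRIM family protein, was at 11.7 CPM in control vehicle 2, 1.47 to 3.57 in the rest of its group, 0.977 to 2.02 in control rapamycin, 1.95 to 6.71 in MIR vehicle and 1.26 to 5.72 in MIR rapamycin. Parp9 was lower in all control rapamycin libraries than in all MIR libraries, whereas Dtx3l had its lowest values in control vehicle.

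**Figure D3:**
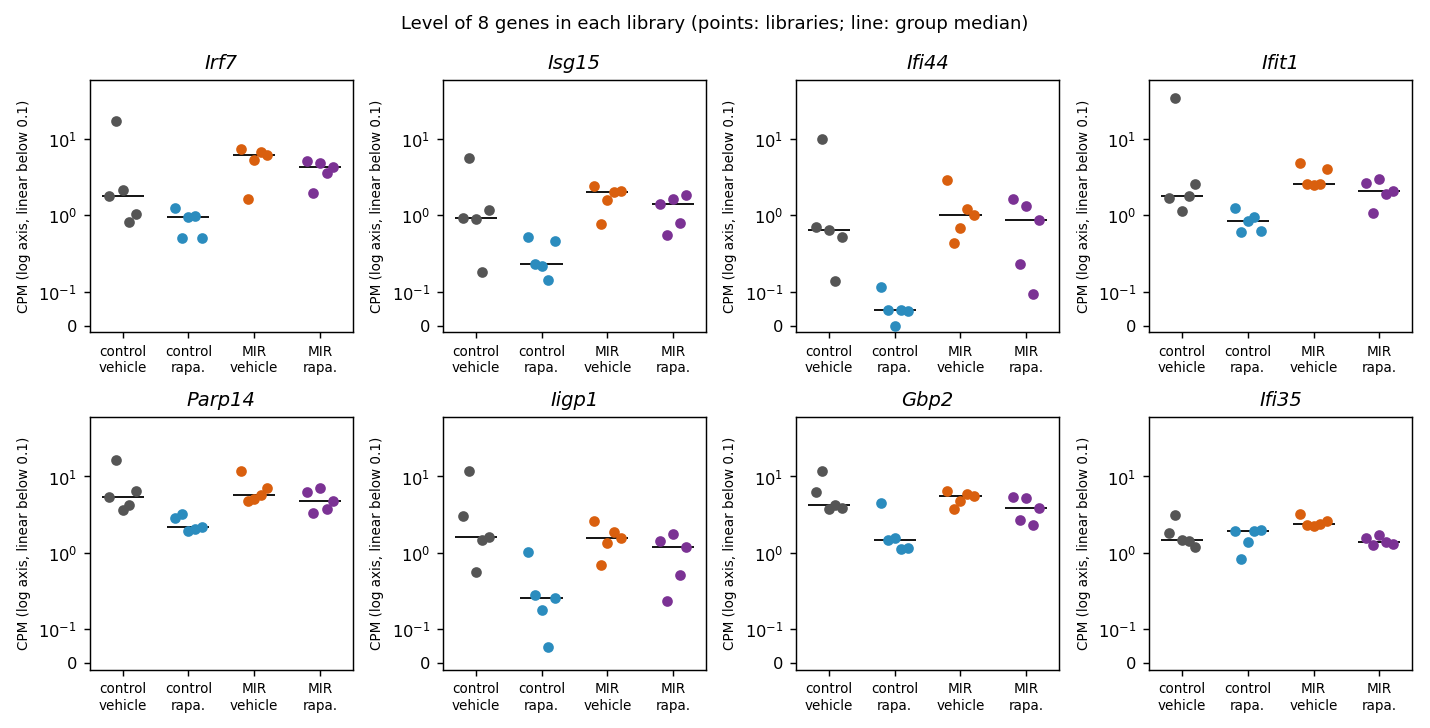
CPM of 8 genes in each of 20 libraries by group (points; line at the group median), on a log axis that is linear below 0.1 CPM. Control vehicle 2 is the highest point for each gene but Ifi35, the control rapamycin points of Ifi44, Isg15 and Parp14 lie low, and the MIR points of Irf7 lie mostly above the control points.

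Of the 12 other effectors Rsad2, Rtp4 and Ifi44 fell. Ifi44 (mm10 chr3:151730922-151749960, minus strand), a cytosolic antiviral protein, was at 0.697, 9.95, 0.644, 0.137 and 0.517 CPM in control vehicle, 0.114, 0.0465, 0, 0.0470 and 0.0421 in control rapamycin, 2.89, 0.439, 0.680, 1.23 and 1.01 in MIR vehicle and 1.66, 0.231, 1.35, 0.0933 and 0.858 in MIR rapamycin. The 2 control groups did not overlap, but control rapamycin held only 5 counts over 5 libraries and the fitted value of -5.50 (adjusted p = 0.0168) depends on the prior count. From the summed counts, control vehicle without replicate 2 exceeded control rapamycin 10.8-fold, with a 95% exact interval of 4.29 to 34.7 that covers counting error only. Cxcl10 had 3 counts in control rapamycin, and the same ratio was 11.3 (3.50 to 58.0). Its CPM values were 0.131, 6.02, 0.0429, 0.229 and 0.861 in control vehicle, 0.114, 0, 0.0440, 0 and 0 in control rapamycin, 1.16, 0.0488, 0.181, 0.687 and 0.722 in MIR vehicle and 0.487, 0.185, 0.144, 0 and 0.367 in MIR rapamycin. Each group held at least 1 library with no more than 1 count of this gene. Rsad2, which encodes viperin, fell by 1.25 and Rtp4 by 1.53 on the log2 scale (adjusted p = 0.0478 and 0.0459), and neither was called without control vehicle 2. Rsad2 was at 6.504 CPM in control vehicle 2, 1.10 to 2.50 in the rest of its group, 0.914 to 1.35 in control rapamycin, 1.59 to 2.78 in MIR vehicle and 1.20 to 1.59 in MIR rapamycin. Rtp4, which modulates type I interferon responses, was at 7.99 CPM in control vehicle 2, 1.07 to 2.33 in the rest of its group, 0.659 to 1.37 in control rapamycin, 1.72 to 2.85 in MIR vehicle and 1.20 to 3.37 in MIR rapamycin. The control rapamycin libraries of Rtp4 and Rsad2 overlapped with those of control vehicle.

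The quasi-likelihood test called the 5 effectors Bst2, Ifitm3, Ifi27, Eif2ak2 and Sp100 in no comparison. For rapamycin in control offspring, DESeq2 and the likelihood ratio test called Bst2 and Eif2ak2 lower, and DESeq2 called Sp100 lower. Bst2, or tetherin, which holds enveloped viruses at the cell surface, was at 12.6 CPM in control vehicle 2, 0.915 to 2.10 in the rest of its group, 0.419 to 1.71 in control rapamycin, 1.07 to 3.85 in MIR vehicle and 1.11 to 4.76 in MIR rapamycin. Ifitm3 was at 17.6 CPM in control vehicle 2, 2.38 to 5.04 in the rest of its group, 2.21 to 6.86 in control rapamycin, 4.24 to 10.7 in MIR vehicle and 4.06 to 11.7 in MIR rapamycin. Ifi27 was at 33.4 CPM in control vehicle 2, 8.38 to 15.7 in the rest of its group, 8.93 to 14.1 in control rapamycin, 12.4 to 19.4 in MIR vehicle and 12.4 to 24.7 in MIR rapamycin. The highest values outside control vehicle 2 of these 3 genes were in MIR libraries. Eif2ak2, the kinase PKR that halts translation on binding double-stranded RNA, was at 30.9 CPM in control vehicle 2, 7.32 to 13.1 in the rest of its group, 5.83 to 9.41 in control rapamycin, 8.89 to 13.6 in MIR vehicle and 7.89 to 14.04 in MIR rapamycin. Sp100, a nuclear body protein, was at 10.3 CPM in control vehicle 2, 2.70 to 4.35 in the rest of its group, 1.65 to 3.83 in control rapamycin, 3.71 to 8.21 in MIR vehicle and 3.22 to 6.34 in MIR rapamycin. These 2 genes had the same order, with control vehicle 2 highest and the lowest value in control rapamycin.

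Cmpk2, Ifit2 and Xaf1 did not follow the others. Cmpk2, a mitochondrial nucleotide kinase that neighbours Rsad2 on chromosome 12, was at 26.8, 27.02, 27.5, 33.00 and 26.1 CPM in control vehicle and 24.6, 28.5, 29.7, 31.8 and 30.7 in control rapamycin. It was at 21.9, 30.1, 23.3, 29.4 and 25.4 in MIR vehicle and 26.03, 25.3, 31.8, 31.5 and 29.5 in MIR rapamycin, so that control vehicle 2 was in the middle of a narrow range. Ifit2 was at 14.2, 26.9, 12.7, 13.6 and 27.00 CPM in control vehicle, 7.71, 13.8, 26.8, 8.70 and 8.85 in control rapamycin, 17.9, 14.9, 11.7, 13.7 and 25.5 in MIR vehicle and 12.7, 8.35, 13.6, 12.1 and 14.7 in MIR rapamycin. Control vehicle 2 and 5, control rapamycin 3 and MIR vehicle 5 lay at 25.5 to 27.0 CPM and all others at 7.71 to 17.9. Xaf1, a protein that binds the apoptosis inhibitor XIAP, was at 5.14, 9.38, 4.85, 7.28 and 9.78 in control vehicle, 3.94, 2.33, 2.37, 7.10 and 8.38 in control rapamycin, 4.97, 4.49, 3.94, 6.18 and 6.16 in MIR vehicle and 4.49, 3.05, 6.34, 3.36 and 3.39 in MIR rapamycin, with the highest values in control vehicle 5 and 2 and control rapamycin 5. None of these 3 genes was called in any comparison by the quasi-likelihood test.

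Other genes of the pathway were examined in lists chosen by role. Of 31 tested further interferon-induced genes, 5 fell and 1 rose under rapamycin in control offspring with all libraries, and 1 fell without control vehicle 2. Gbp9 fell with and without that library, by 1.64 and 1.13 on the log2 scale (adjusted p = 0.0145 and 0.0292). Psmb8, an immunoproteasome subunit, fell by 1.45, Trim21 by 1.07, Ifi203 by 1.38 and Ifi47 by 1.93, and none of these was called without control vehicle 2. Ly6e went the other way, at 0.61 ± 0.17 (SE, adjusted p = 0.0348), and was not called without that library (adjusted p = 0.0520). Of 11 genes of nucleic acid sensing upstream of interferon, Tlr3, the endosomal receptor for double-stranded RNA, fell with and without that library (-0.70 and -0.56, adjusted p = 0.0126 and 0.0241). Of 4 feedback inhibitors Ptpn6 fell by 0.79, and was not called without control vehicle 2. None of 5 tested interferon receptor chains, 5 receptor signalling genes and 4 other interferon regulatory factors was called.

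**Figure D4:**
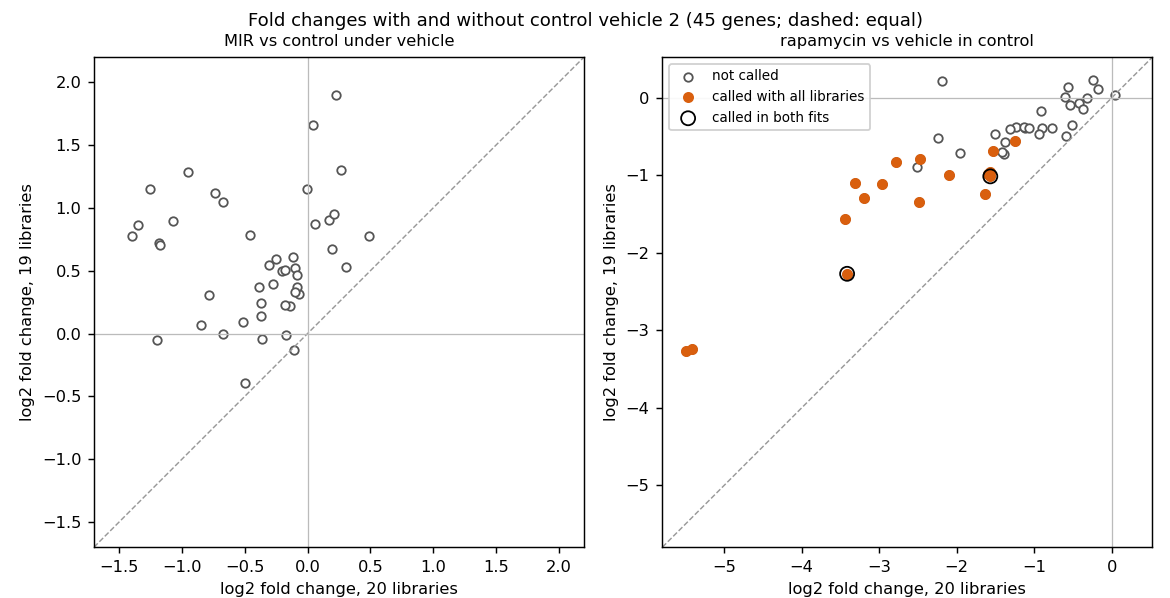
Log2 fold change of the 45 genes fitted with all 20 libraries (horizontal) and without control vehicle 2 (vertical), for MIR against control under vehicle (left) and rapamycin against vehicle in control offspring (right). On the right the medians are -1.39 and -0.52, with 17 genes called with all libraries (filled) and 2 in both fits (ringed). On the left the medians are -0.25 and 0.53 and no gene is called.

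Markers of other cells and regions were set beside this comparison. Of 12 microglia markers none was called and 9 estimates were negative (median -0.17), with summed levels of 314 to 541 CPM in control vehicle and 304 to 407 in control rapamycin. Of 8 endothelial markers Tek was called lower (median of the 8, -0.12), with sums of 215 to 262 and 211 to 237 CPM. None of these markers was at 0 in all libraries. Regional markers moved more. All 4 tested choroid plexus markers had negative estimates (median -3.66, 2 called lower, and 3 without control vehicle 2 at a median of -3.91), with summed levels of 15.5 to 1256 CPM in control vehicle and 1.89 to 5.76 in control rapamycin. Of 4 tested cerebellar markers 3 were called lower (median -4.07) and 1 without control vehicle 2 (median -0.90), and the sums were 49.05 to 2591 and 22.5 to 43.97 CPM. Of 6 astrocyte markers 2 were called lower and 1 higher (median -0.40), and 1 each without control vehicle 2 (median -0.30). Astrocyte scores were 0.04 to 0.87 in control vehicle, or at most 0.34 without replicate 2, and -0.16 to 0.04 in control rapamycin, and for these 3 lists the scores of both control groups did not overlap, with or without that library. The part of cell numbers and of other brain regions in the fall of the 17 genes was not tested.

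Between MIR and control offspring under vehicle, which asks what prenatal inflammation left in the adult cortex, no interferon-stimulated gene was called. The 45 genes had a median log2 fold change of -0.25 with all libraries and 0.53 without control vehicle 2, so that this library turned the direction of the set. Of all tested genes 0.0693% were called higher and 0.0289% lower. With all libraries no gene had an unadjusted p under 0.05 by edgeR (7.4% of all tested genes were higher and 8.92% lower at that level), 36 of 45 estimates were negative, DESeq2 called none, and the edgeR likelihood ratio test called none. Without control vehicle 2, 39 of 45 estimates were positive and 16 genes (35.6%) were higher at an unadjusted p under 0.05, against 7.06% of all genes, but none was called and the smallest adjusted p was 0.0660. An upward shift was built into that fit, because the library was left out for its high level of these genes. In that fit 0.0458% of all genes were called higher and 0.0515% lower.

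That value belonged to Irf7, at 0.22 ± 0.62 (SE) with all libraries and 1.90 ± 0.39 without control vehicle 2. Next came Ifi35, a leucine zipper protein induced by interferon, with 0.49 ± 0.25 and 0.78 ± 0.22 (adjusted p = 0.346 and 0.119). Its CPM values were 1.83, 3.14, 1.46, 1.42 and 1.21 in control vehicle, 1.94, 0.838, 1.36, 1.93 and 1.98 in control rapamycin, 3.18, 2.29, 2.27, 2.405 and 2.60 in MIR vehicle and 1.56, 1.25, 1.73, 1.40 and 1.31 in MIR rapamycin. All 5 MIR vehicle libraries lay above the control vehicle libraries other than replicate 2. The same held for Dhx58 (1.37 to 2.60 against 0.772 to 1.22 CPM) and for Irgm1, a regulator of other immunity-related GTPases (9.20 to 15.5 against 8.15 to 8.93 CPM). These 3 of 45 genes (6.67%) compare with 2.59% of all tested genes with such a separation. With all libraries 0 of the 45 genes were separated in this way, against 1.61% of all tested genes. Because control vehicle 2 was left out for its high level of these genes, the share without it is a description only. With all libraries the lowest p-values after Ifi35 belonged to Ifit1 (-1.35), Stat2 (-0.51), Iigp1 (-1.20) and Igtp (-0.85), whose estimates without control vehicle 2 were 0.87, 0.09, -0.05 and 0.06.

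Endothelial and microglia markers also had mostly positive estimates in this comparison. All 8 endothelial markers had positive estimates with a median of 0.46, 7 at an unadjusted p under 0.05 and none called, and their summed levels were 286 to 345 CPM in MIR vehicle and 215 to 262 in control vehicle. Of 12 microglia markers 11 were positive with a median of 0.47, and sums were 391 to 692 against 314 to 541 CPM. Without control vehicle 2 the medians were 0.46 and 0.40, and 1 endothelial marker was called. Choroid plexus and cerebellar markers went the other way, with all 4 tested choroid plexus markers (median -3.44, 1 called lower, and 2 without control vehicle 2 at -3.69) and all 4 tested cerebellar markers (median -3.84, none called, and -0.73 without that library) at negative estimates with all libraries. Their summed levels were 2.49 to 15.2 and 25.4 to 38.3 CPM in MIR vehicle. The part of these cells and regions in the levels of the interferon-stimulated genes was not tested.

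Between MIR and control offspring under rapamycin, a comparison that does not include control vehicle 2, most interferon-stimulated genes had higher estimates in MIR but none passed the test. The median log2 fold change was 0.92 against 0.00 for all tested genes, and 40 of the 45 estimates were positive. No gene passed the quasi-likelihood test, nor did any of the 17313 genes (0%), and 14 of the 45 (31.1%) were higher at an unadjusted p under 0.05 against 5.75% of all genes. DESeq2 called none of the 45 (0.508% of all tested genes), and the edgeR likelihood ratio test called Ifi44 (0.52% of all). All 5 MIR libraries lay above all 5 control libraries for 7 genes, Irf7, Isg15, Usp18, Parp14, Parp9, Trim25 and Ddx58 (15.6%, against 2.38% of all tested genes).

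Irf7, at 1.94 to 5.12 CPM in MIR rapamycin and 0.505 to 1.26 in control rapamycin, had a log2 fold change of 2.23 ± 0.70 (SE, adjusted p = 0.324). Isg15 had 1.99 ± 0.67 (adjusted p = 0.355). Trim25, a ubiquitin ligase that acts with RIG-I, was at 12.8, 7.48, 10.1, 7.84 and 9.47 CPM in MIR rapamycin and 7.14, 5.91, 6.33, 5.36 and 6.07 in control rapamycin, with 0.63 ± 0.22 (adjusted p = 0.366). In the vehicle groups it was at 12.9, 6.29, 9.34, 10.9 and 9.87 in MIR and 8.67, 12.6, 5.66, 5.31 and 7.58 in control offspring, where the groups overlapped. Lgals3bp, a secreted glycoprotein that binds galectin, was at 18.7, 10.5, 32.97, 10.6 and 17.6 CPM in MIR rapamycin, 11.1, 6.14, 6.55, 7.15 and 5.52 in control rapamycin, 22.5, 6.63, 16.4, 20.3 and 23.97 in MIR vehicle and 14.7, 50.2, 12.1, 5.67 and 14.3 in control vehicle. It had 1.31 ± 0.47 (SE, adjusted p = 0.376), and only MIR rapamycin 2 and 4 overlapped with control rapamycin 1. For Ifi44 the fitted value of 3.99 rests on 5 counts in control rapamycin, and the ratio of summed counts was 17.6 with a counting interval of 7.29 to 55.6.

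The spread used by these tests is shared by all groups and includes control vehicle 2. Without that library the estimates of this comparison hardly moved (median 0.92), the SE of Irf7 went from 0.70 to 0.39, and 29 of 45 genes were higher at an unadjusted p under 0.05 (64.4%, against 7.45% of all genes). A narrower spread of these genes was built into that fit, because the library was left out for its extreme level of them. The count of 29 is therefore a description only. Still none was called, and the smallest adjusted p was 0.0566, for Irf7. Irf7 was called when control vehicle 1, 2 and 3 were left out together, in a fit that called 0.172% of all tested genes.

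**Figure D5:**
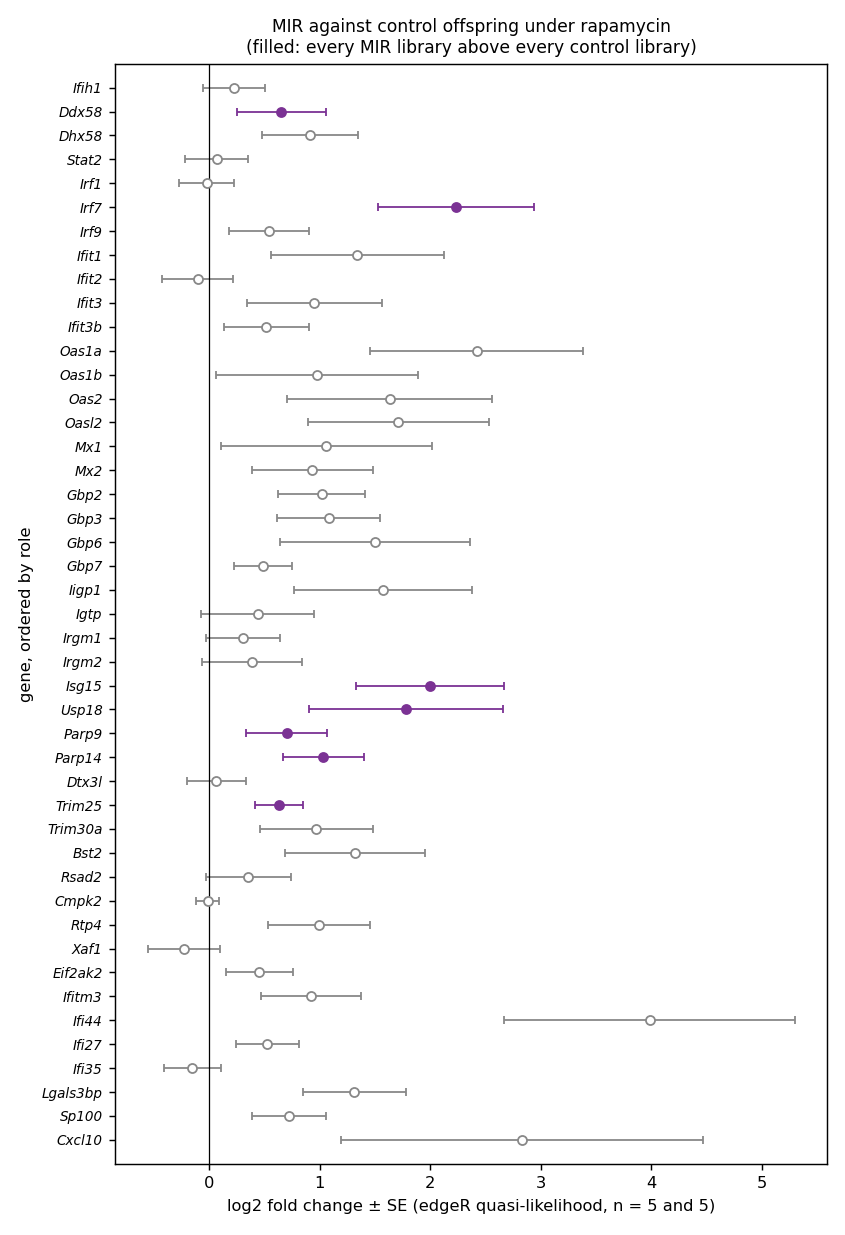
Log2 fold change (points) with its SE (bars) of the 45 genes for MIR against control offspring under rapamycin, 5 libraries each, ordered by role. The median is 0.92 and 40 estimates are above 0, and the 7 filled points mark genes with every MIR library above every control library.

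The estimates of endothelial and microglia markers were again mostly positive. All 8 endothelial markers had positive estimates with a median of 0.29, 4 at an unadjusted p under 0.05, and summed levels of 245 to 344 CPM in MIR rapamycin and 211 to 237 in control rapamycin. Of 12 microglia markers 10 were positive with a median of 0.35, and the sums were 373 to 551 and 304 to 407 CPM. Their part in the result was not tested. Among the other genes of the pathway, the smallest p-values were those of Irf8, a transcription factor that microglia need, at 0.87 ± 0.22 (SE, adjusted p = 0.150), and Psmb8, at 1.40 ± 0.41 (adjusted p = 0.283), and none was called. Under vehicle the smallest were those of Ly6e (0.71, adjusted p = 0.0658) and Trim21 (-0.76, adjusted p = 0.207).

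Rapamycin in MIR offspring was followed by no call among the 45 genes. The median log2 fold change was -0.32 against -0.00 for all tested genes, and 40 estimates were negative. Across all tested genes 0.0116% were called higher and 0.00578% lower. By the quasi-likelihood test 1 of the 45 (2.22%) was lower at an unadjusted p under 0.05, against 2.78% of all tested genes. Without control vehicle 2, which enters only the shared spread here, 8.89% of the 45 were lower at that level, against 3.71% of all genes, and none was called. DESeq2 and the likelihood ratio test called none of the 45. The 1 gene at that level with all libraries was Ifi35, with -0.81 ± 0.26 (SE, adjusted p = 0.541), 1.25 to 1.73 CPM in MIR rapamycin and 2.27 to 3.18 in MIR vehicle. Its groups did not overlap in this comparison, nor did those of Rsad2, at 1.20 to 1.59 CPM under rapamycin and 1.59 to 2.78 under vehicle (-0.71 ± 0.37). These 2 of 45 genes (4.44%) compare with 1.44% of all tested genes. The Rsad2 groups nearly touched, at 1.586 CPM in MIR rapamycin 3 and 1.587 in MIR vehicle 3. Ifit3b (-0.68), Cmpk2 (0.15) and Ifit2 (-0.45) had the next smallest p-values. Of the other genes of the pathway Tlr3 (-0.51 ± 0.15, adjusted p = 0.444) and Ifi203 (-0.82 ± 0.40) came first, and none was called. Of the 8 endothelial markers 5 were lower at an unadjusted p under 0.05 (median -0.28), and 11 of the 12 microglia markers had negative estimates (median -0.22), and their part was not tested.

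The interaction asks whether the response to rapamycin differed between MIR and control offspring, and no gene was called for it. The median over the 45 genes was 0.98 on the log2 scale with 44 estimates positive, and 0.27 without control vehicle 2. All tested genes had a median of 0.04 and none was called (0%). By the quasi-likelihood test 13 members were positive at an unadjusted p under 0.05 (28.9%, against 6.13% of all genes) and 1 was when control vehicle 2 was left out (2.22%, against 4.7%). DESeq2 and the likelihood ratio test called none. The smallest p belonged to Ifi44 at 4.94 ± 1.58 (SE, adjusted p = 0.324), followed by Iigp1 (2.77), Oasl2 (2.89), Usp18 (2.95) and Ifit1 (2.69). Without control vehicle 2 these 5 stood at 2.70, 1.63, 0.98, 1.08 and 0.47.

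Levels between genes can be compared only per length. The highest mean levels per kilobase of exon were those of Ifi27 (10.05 CPM per kb), a mitochondrial protein, Ifitm3 (9.20), which blocks the entry of enveloped viruses, Cmpk2 (6.72), Lgals3bp (5.51) and Stat2 (5.04). Without regard to length, Stat2, Cmpk2, Lgals3bp, Ifit2 and Ifi27 had the highest mean CPM. Among the tested genes the lowest were Oas2, Mx1 and Gbp6, at 0.173, 0.148 and 0.107 CPM per kb, and the untested Oas3 was at 0.0250.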

How the data were processed

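Polyadenylated RNA libraries (KAPA stranded mRNA kit) of 20 mouse brain samples were sequenced by the authors as 50-base read pairs, and libraries that failed their quality checks had been removed. Raw counts per gene were deposited by the authors as whole numbers, made with STAR 2.4.0 and HTSeq 0.6.1 on mm10 per the submitters' processing notes. How strand was set in counting is not stated in the sources used here. Replicates are the numbered samples of a group in the labels.

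Counts as deposited were filtered (filterByExpr, minimum count 10, minimum total 15) and scaled by TMM. One model with 4 groups was fitted by the edgeR 4.0.16 quasi-likelihood test in R 4.3.3, with Benjamini-Hochberg adjustment over all 17313 tested genes, and without control vehicle 2 over 17461. A call needs an adjusted p under 0.05 and a log2 fold change over 0.5 in size, after the study's methods. All 5 comparisons share libraries: each group enters several of them. Log2 CPM used a prior count of 2. The tests were also tried on simulated counts. DESeq2 1.42.0, the likelihood ratio test, other scalings and filters, the replicate number as a block and leaving out libraries were alternatives.

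The members and gene lists were chosen with earlier results of these data known. Genes named with values are members called in any comparison, the 5 with the smallest p in each, the 5 with the highest mean CPM, untested members by their counts, and, of the pathway lists, called genes and the 2 smallest p-values in each group comparison. Others were named after their values were seen. Overlaps and coordinates are from GENCODE M21 on mm10, and promoter sequences and starts are from RefSeq (GRCm38.p6).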

Additional observations from a re-analysis of the deposited data

Results flagged for a closer look

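Within groups of 5 libraries, a value was marked where the gap between the highest or lowest library and its neighbour took up more than 0.71 of the group's range, a rule that chance meets in about 1 in 20 groups. Over the 180 groups of the 45 tested genes, control vehicle 2 was set apart for 35 genes, control rapamycin 1 for 3, MIR rapamycin 3 for 2, and MIR rapamycin 2, MIR vehicle 2, MIR vehicle 5 and control vehicle 4 for 1 each. Control vehicle 2 was already known to have the highest level of these genes. The 45 genes were also read in the same libraries and are not independent. Its marks are therefore a description, and their number cannot be set against that rate.

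Control vehicle 2 was marked for the score of the whole set, at 2.28. Of the genes shown by library, it was marked for Irf7 at 17.5 CPM, Ifit1 at 34.8 CPM, Ifit3 at 21.8 CPM, Ifi44 at 9.95 CPM, Isg15 at 5.72 CPM and Usp18 at 10.6 CPM. It was also marked for Parp14 at 16.5 CPM, Iigp1 at 11.8 CPM, Cxcl10 at 6.02 CPM, Oasl2 at 44.0 CPM, Stat2 at 93.2 CPM and Lgals3bp at 50.2 CPM. In each case it was the highest library of the control vehicle group.

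Control rapamycin 1 was the high library of its group for the GTPases Iigp1, at 1.03 CPM, and Gbp2, at 4.46 CPM. MIR rapamycin 3 was the high library of its group for Usp18, at 1.88 CPM. MIR vehicle 5 was the low library of its group for Stat2, at 24.3 CPM, and control vehicle 4 the high library of its group for Cmpk2, at 33.0 CPM.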

How the results depend on the processing

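The set's direction turned in MIR against control under vehicle, where the median log2 fold change of -0.25 became 0.53 once control vehicle 2 was left out and 0.51 with control vehicle 1, 2 and 3 left out, with no gene called in any of these. For rapamycin in control offspring the same steps gave medians of -0.52 and -0.52 against -1.39, and 2 and 0 calls against 17. They gave medians of 0.27 and 0.22 against 0.98 for the interaction. Leaving out each library in turn gave 2 calls (without control vehicle 2, 3.04% of all genes) to 27 (without control vehicle 4, 7.75%) for rapamycin in control offspring, with medians from -1.63 to -0.52, while the medians ran from -0.42 to 0.53 for MIR under vehicle, 0.63 to 1.01 for MIR under rapamycin, -0.53 to -0.15 for rapamycin in MIR and 0.27 to 1.20 for the interaction. The edgeR likelihood ratio test called 26 genes for rapamycin in control offspring (7.62% of all tested genes, against 5.23% for the 17). For MIR under rapamycin it called 1 (Ifi44, with 0.52% of all), and leaving out control vehicle 1, 2 and 3 also called 1 (Irf7, with 0.172% of all). DESeq2 called 24 (7.58%), kept 14 of the 17, and gave no adjusted p for Irf7, Ifit1 and Usp18. With no filter on low counts 14 genes were called (2.34%). With DESeq2's size factors in edgeR (5.27%), with robust fitting (5.13%) and with no fold change minimum (7.8%), 17 were called. The cause of these differences was not tested. Of the values of single named genes under alternatives, 843 kept their call, or stayed uncalled with a shift smaller than the SE. Another 133 lost the call, 2 gained one, and 21 stayed uncalled but shifted by at least the SE. None that was called changed sign.

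Samples of different groups share only a replicate number: over 30 same-numbered pairs the deviations from the group means had a median correlation of 0.01 (-0.15 to 0.20). With the replicate number as a block, 4 genes were called for rapamycin in control offspring (Gbp2, Iigp1, Parp14 and Ifi44), with 2.45% of all tested genes called against 5.23% without it.

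Low counts limit Ifi44, Cxcl10, Zbp1, Oas3 and Oasl1, since 3 counts equal 0.123 to 0.174 CPM. They also limit Oas1a, Oas1b, Oas2, Mx1, Gbp6, Iigp1, Isg15 and Usp18, whose lowest libraries held 0 to 3 counts. Counting intervals cover counting error only.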
